A study of Homo sapiens with 12 samples.

Results

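The first 2 days after drug removal were followed in A375 cells, a human melanoma line that carries a mutant BRAF kinase, by comparing 2 groups of 3 RNA sequencing libraries. These are 6 of the 12 libraries of the series, chosen by their labels alone. Treated cells (TC) had spent 72 h with the BRAF inhibitor vemurafenib (500 nM) plus the MEK inhibitor cobimetinib (500 nM), together called MAPKi, and were collected while still on drug. Persister cells (PC) had received the same 72 h of MAPKi and had then grown for 2 days in medium without drug. The other 6 libraries set the frame: control cells (CC) had received DMSO, the solvent of the drugs, for 72 h, and recovered cells (RC) had been without drug for 9 days. The study asked how MAPKi and its removal change transcripts of proliferation and DNA repair, and it sequenced RNA after depletion of ribosomal RNA. Its sequencing methods call the starting material total RNA. The libraries analysed here include no DMSO culture at day 2, so the removal of the drug cannot be told apart from 2 more days of culture. The labels number the libraries of a group 1 to 3 without saying that they came from separate cultures, so p-values measure the spread between these libraries, which may be technical.

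In melanoma cells with mutant BRAF, the kinase chain from BRAF through MEK to ERK is always on and drives both cell division and a set of feedback genes, the Sprouty and DUSP genes, which damp the chain. Cells that survive inhibition of BRAF and MEK without a resistance mutation leave the cell cycle and often take on features of the neural crest, the embryonic tissue from which melanocytes arise. This drug-tolerant state is known to be reversible, and cells that are freed of the drug can return to division.

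Total counts in the 6 libraries ran from 37773389 to 55567097, and 20591 to 21568 genes had a count in each. At these depths a count of 3 was worth 0.0540 to 0.0794 CPM (a unit in which every library has the same adjusted total), a floor that covers counting error only. The melanoma label was checked against 10 marker genes, and all 10 were detected. SOX10, the regulator of the melanocyte lineage, had 1044, 1068 and 1027 CPM in TC and 992, 902 and 923 CPM in PC, while MLANA, a melanosome antigen, had 1.71, 1.84 and 0.989 CPM in TC and 1.94, 1.7 and 1.11 CPM in PC and was low in this line. Summed, the 10 markers had 4985 to 5303 CPM in TC and 4247 to 4674 CPM in PC. The 16 markers of blood, epithelial, endothelial, liver and fibroblast cells summed to 38.7 to 42.7 CPM in TC and 30.5 to 32.3 CPM in PC, and 6 of them had at most 3 counts in every library, with PECAM1 and CDH5 among those at 0. Of the 7 tested, the basal keratin KRT14 was higher, from 0.544, 0.383 and 0.261 CPM to 2.3, 1.93 and 2.64 CPM, and KRT18, a simple epithelial keratin, was lower, from 14.4, 12.5 and 14.6 CPM to 8.24, 9.09 and 7.75 CPM. Their part in the results was not tested. In bulk RNA, fewer cells that express a gene and less RNA per cell cannot be told apart. On the first principal component of the 6 libraries, which held 54.3% of the variance, TC lay between -32.8 and -21.7 and PC between 21 and 32.6.

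Over all genes the first 2 days brought a smaller shift than the drug itself. The median absolute log2 fold change of the 15916 tested genes was 0.23 from TC to PC, against 0.63 from CC to TC and 0.67 from PC to RC. In edgeR's quasi-likelihood test, 1944 genes (12.2%) rose from TC to PC and 1992 genes (12.5%) fell, with an adjusted p under 0.05. Beyond 1.5-fold, 371 genes (2.33%) were higher and 183 genes (1.15%) were lower. For the drug itself, 5285 genes (33.2%) were higher and 5522 genes (34.7%) were lower in TC than in CC. These percentages are the background against which the counts of each gene list are given. Without PC replicate 3 the number of genes lower in PC was 1266.

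Genes were first taken that differed beyond 1.5-fold between CC and the mean of TC and PC, to describe what deepened, moved back or stayed. That mean weighs TC and PC alike, but it includes PC. A gene was said to have deepened or moved back where PC differed from TC at an adjusted p under 0.05, away from CC or toward it, and to have stayed where it was not called and the 95% interval of the change lay within 1.5-fold either way. Of 2697 genes higher in that mean than in CC, 505 (18.7%) deepened, 227 (8.42%) moved back, 1133 (42%) stayed and 832 (30.8%) were undecided. Of 3303 genes lower in it, 635 (19.2%) deepened, 587 (17.8%) moved back, 946 (28.6%) stayed and 1135 (34.4%) were undecided. A gene moved by drug and then fully back can be left out of these counts. ITGAV was left out, with means of 346 CPM in CC, 695 CPM in TC and 319 CPM in PC. A gene changed mainly after removal can count as deepened, as SPP1 did (-0.37 from CC to TC, not called, then -2.08 from TC to PC). The number of raised genes that moved back depended on single libraries, with 142 without TC replicate 2, 132 without PC replicate 2 and 134 without PC replicate 3.

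**Figure D1:**
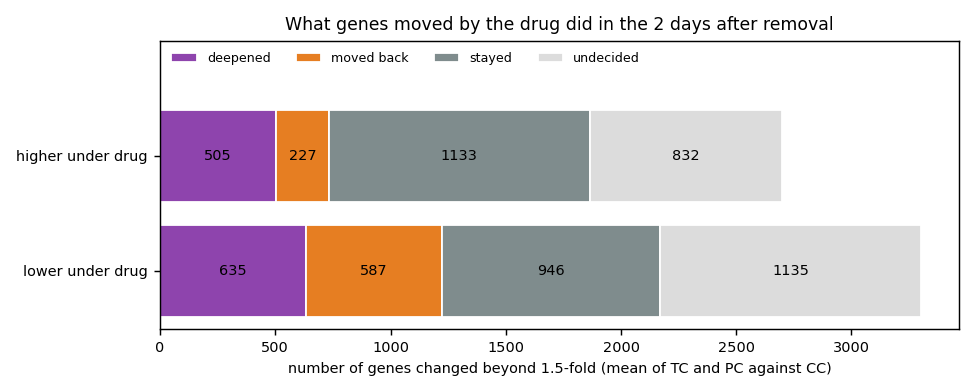
Numbers of genes, on the x axis, that were higher (top bar) or lower (bottom bar) beyond 1.5-fold in the mean of TC and PC against CC, divided by what they did between TC and PC. In both bars the genes that stayed outnumber those that moved back, 1133 against 227 and 946 against 587. A gene back at its CC level in PC can fall short of 1.5-fold in this mean and leave the bars. The bars therefore do not count all genes that moved back.

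Cell division genes had the highest median rise of the gene lists. Of the 54 G2/M phase genes, which act in chromosome condensation, spindle assembly and exit from mitosis, 47 were higher and 0 lower after 2 days without drug, against 12.2% and 12.5% of all genes tested. Beyond 1.5-fold 41 were higher, against 2.33% of all genes. Their median log2 fold change was 1.59, beside 0.00 over all genes tested. The median of the same list had been -3.24 from CC to TC, and it was -1.49 from CC to PC. From PC to RC the median was 2.24.

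The genes of this list share letters in their promoters that the choice of the list did not use. The cell cycle homology region (CHR), spelled TTTGAA, and the CCAAT box, spelled CCAAT, are known elements of genes that are silenced in resting cells and expressed in G2 and mitosis. Both strands were searched from 250 bases before to 50 bases after the start, in RefSeq promoters of GRCh38.p14. Of the 54 genes, 45 (83.3%) matched a promoter, and 31 (68.9%) of these held the CHR letters, 31 (68.9%) held CCAAT and 25 (55.6%) held both. Among the 11587 tested genes with a promoter in the table (72.8% of 15916), 1158 (9.99%) held the CHR letters, 4258 (36.7%) held CCAAT and 492 (4.25%) held both. The E2F letters TTTGGCGC or TTTCCCGC were in 2 (4.44%) of the 45 promoters and in 418 (3.61%) of all. A match is a description of the letters and not proof of a site. Of the 24 tested cholesterol synthesis genes, 18 (75%) had a promoter in the table, and those without one could not be searched. Of the 18, 1 (5.56%) held the CHR letters and 15 (83.3%) held CCAAT. The median log2 fold change of this list was 0.01 from TC to PC. A high share of CCAAT was therefore not particular to the G2/M phase genes.

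Shown here are the 120 bases before the start of 4 genes. They had the largest rise among list members with a matched promoter that held the CHR letters in this stretch. Members without a promoter in the table, such as PIMREG (2.68) and BIRC5 (2.65), could not be searched. The capitals mark the CHR letters on either strand (TTTGAA or TTCAAA) and the CCAAT box on either strand (CCAAT or ATTGG), with 1 place in HMMR where CCAAT overlaps ATTGG. GTSE1 lies at chr22:46296750-46296869, plus strand, HMMR at chr5:163460512-163460631, plus strand, DLGAP5 at chr14:55191586-55191705, minus strand and CDC20 at chr1:43358861-43358980, plus strand.
GTSE1: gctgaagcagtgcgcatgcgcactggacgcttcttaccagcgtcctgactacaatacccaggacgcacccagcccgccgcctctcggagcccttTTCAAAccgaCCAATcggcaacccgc
HMMR: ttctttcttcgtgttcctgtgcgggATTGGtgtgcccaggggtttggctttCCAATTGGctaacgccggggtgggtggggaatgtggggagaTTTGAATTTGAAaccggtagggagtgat
DLGAP5: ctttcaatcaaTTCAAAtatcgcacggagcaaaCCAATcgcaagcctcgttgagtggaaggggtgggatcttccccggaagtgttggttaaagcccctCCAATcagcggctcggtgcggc
CDC20: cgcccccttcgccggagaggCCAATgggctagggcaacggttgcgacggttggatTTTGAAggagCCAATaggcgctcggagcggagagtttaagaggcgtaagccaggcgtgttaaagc
In GTSE1, which codes for a microtubule-binding regulator of G2, the CHR letters begin 26 bases and the CCAAT box 16 bases before the start. In CDC20 the CHR letters begin 65 bases before the start, between CCAAT boxes at 100 and 55 bases.

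CDC20 (chromosome 1, 43358981 to 43363203, plus strand, GRCh38, GENCODE v44) codes for an activator of the anaphase-promoting complex and had 12.3, 10.2 and 9.76 CPM in TC and 53.1, 60.3 and 64 CPM in PC. Every PC library lay above every TC library, and the log2 fold change was 2.46 (adjusted p 1.3e-06, SE 0.15). All 3 PC libraries were still below those of CC, which had 169.8, 238 and 157 CPM. GTSE1 (chromosome 22, 46296870 to 46330810, plus strand) had 7.05, 6.06 and 4.63 CPM in TC and 33.5, 36 and 39.5 CPM in PC, a log2 fold change of 2.63 (adjusted p 3.8e-07, SE 0.14). MKI67, the proliferation marker Ki-67, had 13.2, 11.5 and 10.3 CPM in TC and 48.1, 50 and 56.4 CPM in PC, a log2 fold change of 2.15 (adjusted p 1.1e-07, SE 0.09). Again the groups did not overlap. CDK1, the kinase that starts mitosis, changed by 2.10 (adjusted p 2.1e-06, SE 0.14), and CCNB1, its partner cyclin B1, by 2.04 (adjusted p 2.9e-06, SE 0.14). BIRC5, which codes for survivin of the chromosomal passenger complex, changed by 2.65 (adjusted p 7.6e-07, SE 0.15). The 7 members that were not called ran from -0.10 for LBR, a lamin receptor, to 0.40 for GAS2L3, a cytoskeletal linker, both named for their place at the ends of this range.

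Among the regulators of these genes, the transcription factors FOXM1 and MYBL2 rose, and cyclin D1 did not pass. In the list of G1/S cyclins and E2F regulators, 10 of 20 genes were higher and 0 lower, with a median of 0.31. FOXM1, the transcription factor of the G2/M program, had 9.15, 7.75 and 7.28 CPM in TC and 43.5, 48.5 and 50.6 CPM in PC, a log2 fold change of 2.56 (adjusted p 2.7e-08, SE 0.09). MYBL2, the B-MYB subunit of the complex that turns these genes on, changed by 2.33 (adjusted p 3.8e-07, SE 0.12), and CCNA2, cyclin A2, by 2.26 (adjusted p 1.7e-06, SE 0.15). CCNE2, cyclin E2 of the G1/S transition, changed by 1.15 (adjusted p 0.00033, SE 0.16). CCND1, cyclin D1, through which ERK activity reaches the cell cycle, had 71.3, 78.7 and 72.2 CPM in TC and 77.8, 81.3 and 93.3 CPM in PC, with overlapping groups and a log2 fold change of 0.18 (adjusted p 0.36, SE 0.14) that did not pass. Its CC libraries had 253, 192 and 308 CPM.

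Many S phase and replication genes were higher in PC, and fewer of the nucleotide synthesis genes. Of 43 S phase genes, 31 were higher and 0 lower, with a median of 0.59 after a median of -1.80 under drug, and of 46 replication origin and fork genes, 26 were higher and 0 lower, with a median of 0.38 after -1.70. RRM2 (chromosome 2, 10120698 to 10211725, plus strand), the ribonucleotide reductase subunit that makes deoxynucleotides, had 24, 23.2 and 20.1 CPM in TC and 114, 124 and 137 CPM in PC. The groups did not overlap, the log2 fold change was 2.48 (adjusted p 2.5e-07, SE 0.12), and the PC libraries reached the range of CC (107, 150.3 and 146 CPM). TYMS, thymidylate synthase, changed by 2.12 (adjusted p 5.7e-06, SE 0.17). MCM10, which helps to fire origins, had 2.41, 1.97 and 2.18 CPM in TC and 6.15, 7.56 and 7.24 CPM in PC and changed by 1.68 (adjusted p 2.2e-05, SE 0.16). CDC45, a part of the replicative helicase, changed by 1.71 (adjusted p 4.6e-06, SE 0.13), while MCM2, a subunit of the helicase core, changed by 0.66 (adjusted p 0.00059, SE 0.10). Of 22 de novo nucleotide synthesis genes, 8 were higher and 1 lower (median 0.15), and 12 of the genes stayed.

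DNA repair genes were taken by pathway. Of 37 homologous recombination and Fanconi genes, 27 were higher and 0 lower, with a median of 0.72 after -1.48 under drug. RAD54L, a motor protein of recombination, changed by 1.83 (adjusted p 7.1e-06, SE 0.15), POLQ, the polymerase of error-prone end joining, by 1.72 (adjusted p 1.1e-06, SE 0.11), and BRCA1 by 0.77 (adjusted p 7e-05, SE 0.09). XRCC2, another recombination factor, had 2.0, 2.61 and 2.87 CPM in TC and 6.65, 6.7 and 8.54 CPM in PC, without overlap, and changed by 1.54 (adjusted p 1.2e-05, SE 0.14). EXO1, a nuclease shared with mismatch repair, changed by 0.93 (adjusted p 0.00025, SE 0.12). Of 22 mismatch repair genes, 7 were higher and 1 lower, with a median of 0.18. Of 34 base and nucleotide excision repair genes, 4 (11.8%) were higher and 2 lower (median 0.09), a share near the 12.2% of all genes. Within that list NEIL3, a glycosylase of S phase, changed by 2.56 (adjusted p 1.7e-06, SE 0.17), whereas DDB1, a subunit of the damage-binding ligase, changed by -0.40 (adjusted p 0.00015, SE 0.05).

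**Figure D2:**
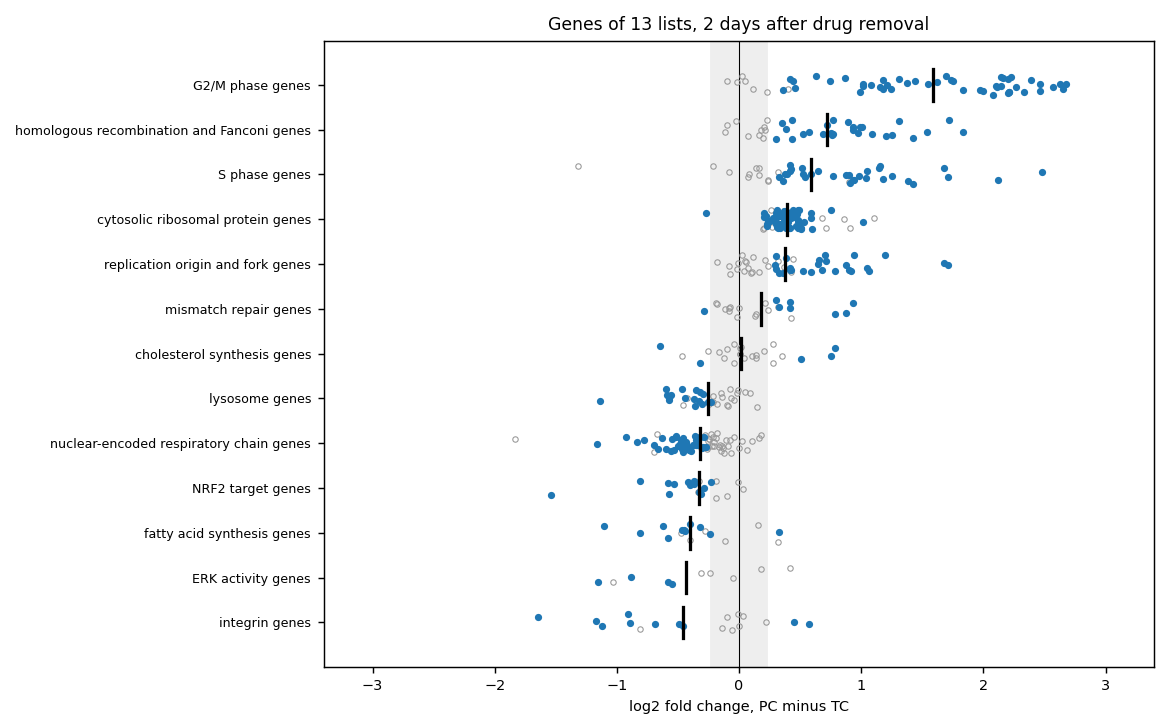
Log2 fold change from TC to PC, on the x axis, of each tested gene in 13 lists; filled points passed an adjusted p under 0.05 in edgeR, open points did not, black bars are list medians and the grey band spans the quartiles of all genes tested (-0.23 to 0.23). The median falls from 1.59 in G2/M phase genes to -0.46 in integrin genes; RPS2 (4.47) and ITGA9 (-3.63, not called) lie beyond the axis.

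Ribosomal protein genes had many small changes. Of 77 cytosolic ribosomal protein genes, 66 were higher and 1 lower in PC, with a median of 0.39 after a median of -0.87 under drug. In the test beyond 1.5-fold, 1 was higher. RPL12 (chromosome 9, 127447674 to 127451406, minus strand), a protein of the large subunit, had 454, 479 and 472 CPM in TC and 757, 796 and 809 CPM in PC, with no overlap and a log2 fold change of 0.75 (adjusted p 2.1e-06, SE 0.05). Its RC libraries were at 778, 769 and 815 CPM, and its CC libraries were higher, at 1032, 1051 and 997 CPM. Ribosomal protein genes have many processed copies in the genome, and the treatment of reads that match more than 1 place was not stated, so these values are uncertain. Of 44 ribosome biogenesis and RNA polymerase I genes, 5 were higher and 1 lower (median 0.10 after -0.82 under drug), and 20 of the 44 stayed. Mitochondrial ribosomal protein genes had 5 higher and 12 lower of 74 (median -0.02, and from -0.05 without PC replicate 2 to -0.01 without PC replicate 1). Initiation and elongation factors had 6 higher and 3 lower of 26. Among them EIF4G1, the scaffold of the cap-binding complex, changed by -0.63 (adjusted p 0.0001, SE 0.07).

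None of the transcripts that report ERK activity was called higher after 2 days without drug. Of the 10 ERK activity genes, 0 were higher and 4 lower in PC, with a median of -0.43 after -3.50 under drug. The 4 lower genes were PHLDA1, EPHA4, ETV4 and ETV5. Under drug EPHA4 had not been called, with a change of 0.33 from CC to TC (adjusted p 0.3, SE 0.27) and 1.38, 1.38 and 1.12 CPM in CC. EPHA4, an ephrin receptor at 1.37, 1.64 and 1.87 CPM in TC and 0.497, 1.04 and 1.09 CPM in PC, lost its call (-0.89 (adjusted p 0.036, SE 0.28)) without TC replicate 2 (-0.88, adjusted p 0.084), TC replicate 3 (-0.77, adjusted p 0.1), PC replicate 1 (-0.61, adjusted p 0.088) or PC replicate 2 (-1.03, adjusted p 0.051). The 6 members that were not called were SPRY2 at -0.31, SPRY4 at -1.03, DUSP4 at -0.05, DUSP6 at 0.42, EPHA2 at -0.24 and CCND1 at 0.18. From PC to RC the median of the list was 3.33.

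SPRY4 (chromosome 5, 142310427 to 142326455, minus strand), a feedback inhibitor of the pathway, had 1.79, 1.46 and 1.72 CPM in TC and 0.837, 0.674 and 0.925 CPM in PC. Each PC library lay below each TC library, but the log2 fold change of -1.03 (adjusted p 0.16, SE 0.50) did not pass in the fit of all 12 libraries. Its CC libraries had 342, 270.4 and 720.0 CPM. Fitted to the TC and PC libraries alone it passed (-1.03, adjusted p 0.0091), and it passed in DESeq2 (-1.01, adjusted p 0.02). ETV4 (chromosome 17, 43527844 to 43579620, minus strand), an ETS factor induced by ERK, had 2.77, 2.68 and 2.39 CPM in TC and 1.49, 1.63 and 2.08 CPM in PC, with no overlap and a log2 fold change of -0.58 (adjusted p 0.003, SE 0.11). Its CC libraries had 236, 230.3 and 238 CPM. PHLDA1 (chromosome 12, 76025447 to 76031776, minus strand), which codes for a pleckstrin homology protein, had 705, 543 and 409 CPM in TC and 288, 238 and 218 CPM in PC, and fell by 1.15 (log2) (adjusted p 0.00031, SE 0.16). DUSP6, the phosphatase that removes phosphate from ERK, had 5.26, 3.25 and 3.32 CPM in TC and 6.1, 5.13 and 4.51 CPM in PC, overlapping groups and a log2 fold change of 0.42 (adjusted p 0.58, SE 0.49).

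**Figure D3:**
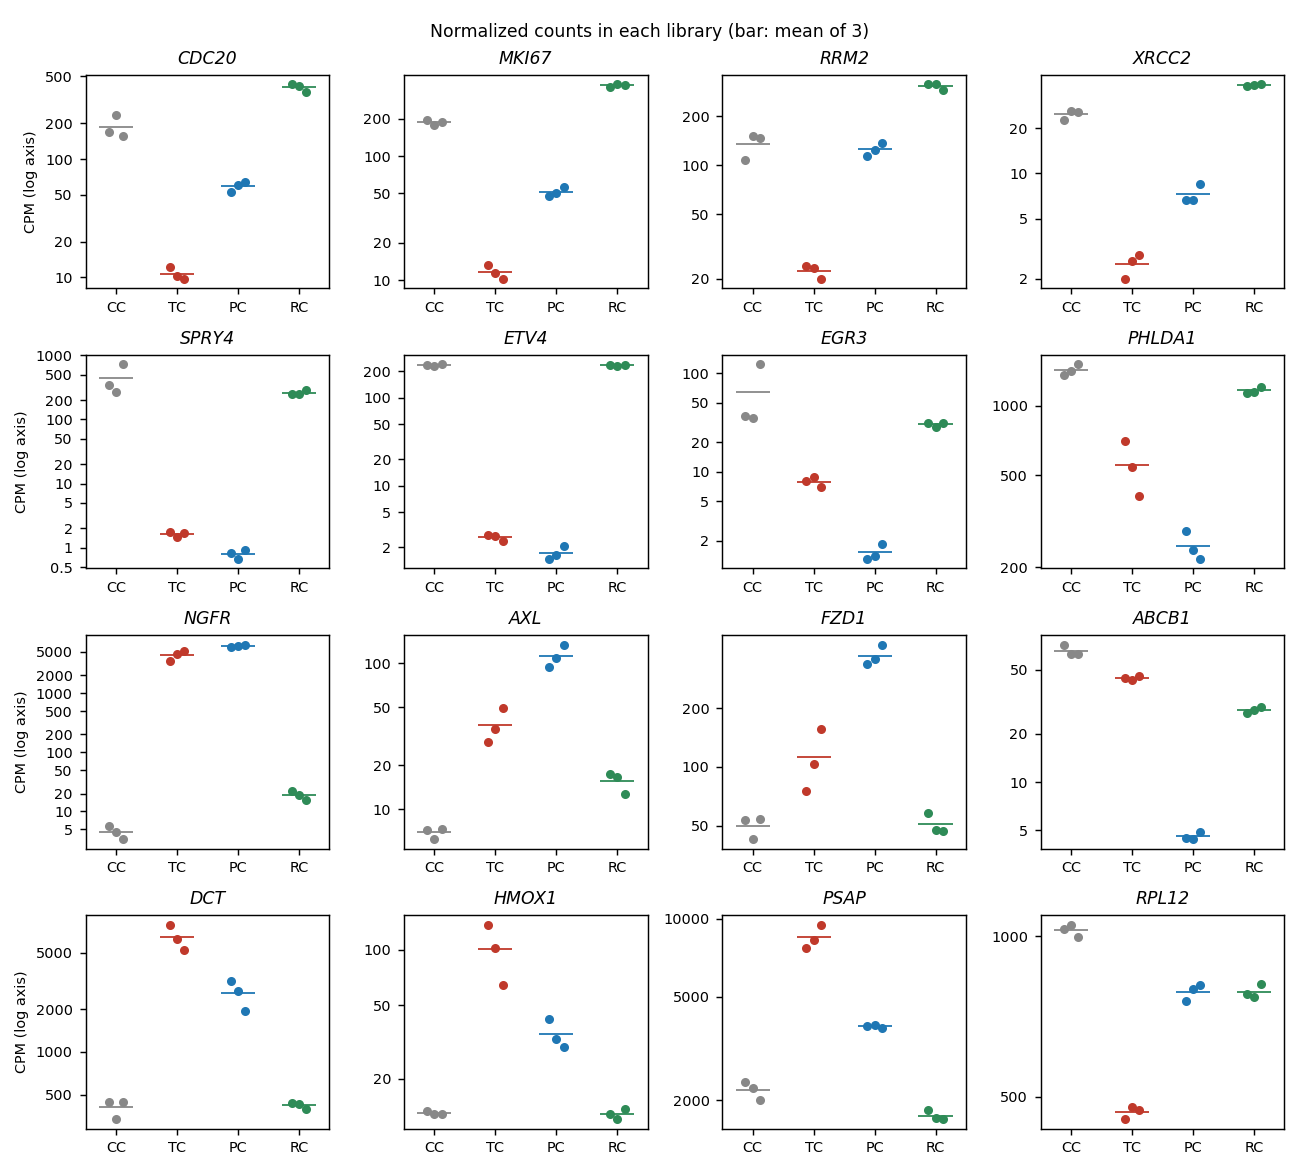
Normalized counts (CPM, log y axis) of 16 genes in each of the 12 libraries, with groups on the x axis, points for libraries and bars for the mean of 3. CDC20, MKI67, RRM2 and XRCC2 are higher in PC than in TC, the PC libraries of SPRY4, ETV4, EGR3 and PHLDA1 lie below their TC libraries, and AXL and FZD1 are highest in PC.

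Of 19 immediate early and AP-1 genes, the first transcripts to answer a growth signal, 13 were not called. The 2 higher (10.5%) and 4 lower (21.1%) genes stand beside 12.2% and 12.5% of all genes. The median was -0.12, and from -0.16 without TC replicate 2 to -0.07 without TC replicate 1. EGR3, a zinc finger factor that follows EGR1, had 8.04, 8.77 and 6.98 CPM in TC and 1.31, 1.39 and 1.85 CPM in PC, without overlap, and fell by 2.38 (log2) (adjusted p 0.0027, SE 0.46). EGR1 itself had 0.648, 0.716 and 1.18 CPM in TC and 0.785, 1.28 and 1.57 CPM in PC, overlapping groups and a change of 0.49 (adjusted p 0.78, SE 1.06). FOSL2, a FOS-related AP-1 subunit, went the other way, with 204, 231 and 279.7 CPM in TC and 394, 409 and 422 CPM in PC, no overlap and a change of 0.78 (adjusted p 0.00049, SE 0.12). MAPKi had already raised FOSL2 from 16.7, 21.2 and 20.7 CPM in CC, so it was among the genes that deepened. JUNB, another AP-1 subunit, changed by -0.58 (adjusted p 0.0069, SE 0.13), and FOS by -0.12 (adjusted p 0.75, SE 0.23).

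Some genes of the dedifferentiated, invasive state that MAPKi had raised were higher still without drug. AXL (chromosome 19, 41219223 to 41261766, plus strand), a receptor tyrosine kinase known from drug-tolerant melanoma, had 29.1, 35.3 and 49.3 CPM in TC and 94.1, 108 and 134 CPM in PC, with no overlap, and rose by 1.56 (adjusted p 0.00011, SE 0.18) (log2), after a log2 fold change of 2.45 from CC to TC. Of the 23 receptor tyrosine kinases tested, 5 (21.7%) were higher and 5 (21.7%) lower, beside 12.2% and 12.5% of all genes (median -0.13, and -0.05 without TC replicate 1). In this list 7 genes had deepened, which takes in lowered kinases that fell further as well as raised ones that rose. Over all genes moved by drug, 18.7% of the raised and 19.2% of the lowered ones deepened. NTRK2, the receptor for BDNF, changed by 2.05 (adjusted p 0.00047, SE 0.29) from 0.674, 1.15 and 1.31 CPM in TC to 4.06, 4.28 and 4.67 CPM in PC. Among 23 neural crest and dedifferentiation genes, 9 were higher and 5 lower (median 0.17). SOX2, a stem cell factor, had 63.3, 76.8 and 77.3 CPM in TC and 94.4, 103 and 119 CPM in PC, without overlap, and changed by 0.54 (adjusted p 0.0076, SE 0.12), and SNAI2, the neural crest factor Slug, changed by 1.26 (adjusted p 0.00039, SE 0.18). NRG1, the ligand neuregulin 1 of ERBB receptors, had 0.7, 0.971 and 1.03 CPM in TC and 2.02, 2.28 and 2.57 CPM in PC and changed by 1.34 (adjusted p 0.0028, SE 0.26). S100B, a calcium-binding protein of the neural crest lineage, had 144, 149 and 128 CPM in TC and 270.0, 278 and 269.6 CPM in PC and changed by 0.96 (adjusted p 1.8e-05, SE 0.09), back to the CC range of 253, 305 and 234 CPM.

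NGFR, the nerve growth factor receptor that marks neural crest-like melanoma cells, had 3574, 4622 and 5208 CPM in TC and 6005, 6259 and 6677 CPM in PC after 5.68, 4.52 and 3.41 CPM in CC. The groups did not overlap, yet its change of 0.50 (adjusted p 0.043, SE 0.16) lost the threshold on leaving out TC replicate 1 (0.37, adjusted p 0.14), TC replicate 2 (0.52, adjusted p 0.091), PC replicate 1 (0.53, adjusted p 0.07), PC replicate 2 (0.51, adjusted p 0.097) or PC replicate 3 (0.46, adjusted p 0.13), and with a filter of 2 summed counts (0.49, adjusted p 0.058). NES, the intermediate filament nestin, went against the list, with 602, 775 and 972 CPM in TC and 220.0, 264 and 231 CPM in PC, no overlap and a fall by 1.71 (log2) (adjusted p 1.2e-05, SE 0.15). FGFR2, a fibroblast growth factor receptor, had 0.415, 0.332 and 0.896 CPM in TC and 1.75, 2.2 and 2.52 CPM in PC and changed by 1.95 (adjusted p 0.012, SE 0.48), or 1.70 (adjusted p 0.053) without TC replicate 2. Of 12 EMT factors and cadherins, 3 were higher and 1 lower (median 0.25), with CDH6, an embryonic cadherin, at 1.40 (adjusted p 0.0033, SE 0.27).

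WNT, TGF-beta and matrix genes held some of the larger rises. FZD1 (chromosome 7, 91264433 to 91271326, plus strand), a WNT receptor, had 75.3, 103 and 157 CPM in TC and 335, 355 and 423 CPM in PC, without overlap, and rose by 1.73 (adjusted p 0.00014, SE 0.21) (log2). In all, 7 of 23 WNT pathway genes were higher and 1 lower (median 0.23, and 0.15 without PC replicate 3). Of 21 TGF-beta and BMP feedback genes, 7 were higher and 2 lower (median -0.01, and from -0.06 without PC replicate 1 to 0.09 without TC replicate 3). ID2, an inhibitor of differentiation factors and a BMP target, changed by 1.17 (adjusted p 1.2e-05, SE 0.10) and INHBA, the activin A subunit, by 1.16 (adjusted p 0.0011, SE 0.19), while LTBP1, which tethers latent TGF-beta to the matrix, changed by -1.07 (adjusted p 3.2e-05, SE 0.11). Matrix proteases and their inhibitors had 8 higher and 1 lower of 21 (median 0.28), with ADAM19, a membrane metalloprotease, at 1.69 (adjusted p 3.5e-05, SE 0.17). Collagen genes had 11 higher and 4 lower of 31 (median 0.10, and 0.19 without PC replicate 2). COL5A3, a fibrillar chain, had 2.67, 6.34 and 7.88 CPM in TC and 34.3, 34.5 and 33.8 CPM in PC and rose by 2.60 (adjusted p 0.00023, SE 0.33) (log2), and COL1A1, the chain of type I collagen, had 0.752, 0.639 and 1.31 CPM in TC and 2.02, 4.87 and 3.84 CPM in PC and rose by 1.98 (adjusted p 0.005, SE 0.41), whereas COL8A1, a short chain, fell by 1.24 (adjusted p 1.3e-05, SE 0.11). Of 23 YAP/TEAD target genes, 7 were higher and 4 lower (median 0.05, and from 0.04 without PC replicate 3 to 0.11 without TC replicate 3). WWTR1, a coactivator related to YAP, was among the lower genes, with a change of -0.92 (adjusted p 2.3e-05, SE 0.09).

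In the pigment, lysosome and NRF2 lists the called genes were all lower in PC, among them strongly raised genes that moved back. DCT (chromosome 13, 94436811 to 94479682, minus strand), dopachrome tautomerase of melanin synthesis, had 7869.8, 6234 and 5263 CPM in TC and 3178, 2673 and 1956 CPM in PC, without overlap. It fell by 1.31 (log2) (adjusted p 0.00028, SE 0.18), with 444, 337 and 441 CPM in CC. PMEL, the fibril protein of the melanosome, had 817, 610.2 and 419.8 CPM in TC and 358, 321 and 187 CPM in PC and changed by -1.09 (adjusted p 0.0061, SE 0.24). Of 18 pigmentation and melanocyte genes, 0 were higher and 7 lower (median -0.38, and from -0.60 without PC replicate 1 to -0.18 without TC replicate 1). MITF, the regulator of these genes, had 407, 321 and 236 CPM in TC and 288, 228 and 147 CPM in PC, overlapping groups and a change of -0.54 (adjusted p 0.14, SE 0.25).

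PSAP (chromosome 10, 71816298 to 71851251, minus strand), the precursor of lysosomal saposins, had 7708, 8269 and 9482 CPM in TC and 3867, 3877 and 3799.9 CPM in PC and fell by 1.14 (log2) (adjusted p 2.1e-06, SE 0.08). The 3 PC libraries lay close together and below all TC libraries. Lysosome genes had 0 higher and 17 lower of 35, against 12.2% and 12.5% of all genes (median -0.26 after 0.48 under drug). HMOX1 (chromosome 22, 35380361 to 35394214, plus strand), haem oxygenase, an NRF2 target, had 137, 103 and 64.9 CPM in TC and 42.3, 32.9 and 29.6 CPM in PC, with no overlap, and fell by 1.54 (adjusted p 0.00032, SE 0.21). Of 20 NRF2 target genes, 0 were higher and 13 lower (median -0.33). Of the 13, NQO1, a quinone reductase, changed by -0.58 (adjusted p 0.00094, SE 0.10) and ME1, malic enzyme, by -0.81 (adjusted p 2.3e-05, SE 0.08). These 2 genes had not been called under drug, at -0.22 and -0.07 from CC to TC.

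In the respiratory and glycolytic lists the called genes were all lower in PC, and 35 and 10 genes were not called. Of 70 nuclear-encoded respiratory chain genes, 0 were higher and 35 lower (median -0.32 after -0.11 under drug). In the mean of TC and PC against CC, 57 of the 70 did not pass the test beyond 1.5-fold. SDHA, the catalytic subunit of complex II, had 167, 134 and 135 CPM in TC and 63.5, 69.4 and 61.5 CPM in PC, without overlap, and changed by -1.16 (adjusted p 3.4e-05, SE 0.12). Of 23 glycolysis genes, 0 were higher and 13 lower (median -0.28 after -0.16 under drug). SLC2A3, a glucose transporter, had 41.2, 39 and 37.5 CPM in TC and 16.3, 17.9 and 17.1 CPM in PC and changed by -1.20 (adjusted p 4.9e-06, SE 0.09), and HK1, hexokinase, changed by -0.79 (adjusted p 7.1e-06, SE 0.07). Mitochondrial ribosomal RNA took 2.73% to 3.26% of the counts in TC and 2.04% to 2.59% in PC, and its part in these values was not tested.

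More fatty acid genes were lower than higher in PC, and most cholesterol genes were not called. Of 17 fatty acid synthesis genes, 1 was higher and 10 were lower (median -0.40 after -1.05), and 7 had deepened. SREBF1, the transcription factor of the pathway, had 298, 296 and 303 CPM in TC and 152, 133 and 133 CPM in PC, without overlap, and changed by -1.10 (adjusted p 2.5e-05, SE 0.11). Of 24 cholesterol synthesis genes, 3 (12.5%) were higher and 2 lower (median 0.01 after -0.93, and from 0.00 without PC replicate 1 to 0.04 without TC replicate 3). ACAT2, an acetyl-CoA acetyltransferase, had 5.83, 5.19 and 7.6 CPM in TC and 11.6, 10.1 and 9.74 CPM in PC, without overlap, and changed by 0.75 (adjusted p 0.0034, SE 0.15).

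Amino acid transporters were more often lower than higher. They had 1 higher and 9 lower of 21 (median -0.40 after -0.95). SLC7A5, the carrier of large neutral amino acids, had 826, 857 and 982 CPM in TC and 516, 452 and 423 CPM in PC and changed by -0.94 (adjusted p 0.0027, SE 0.18), and SLC3A2, its partner chain, by -0.82 (adjusted p 0.002, SE 0.15). From CC to TC these subunits had changed by 0.11 and -0.36, and neither had been called. SLC38A1, a glutamine carrier, had 18.4, 16.8 and 16.2 CPM in TC and 6.83, 5.74 and 6.15 CPM in PC, without overlap, and fell by 1.46 (adjusted p 0.0005, SE 0.22) after 409.7, 271 and 534 CPM in CC.

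Most genes of amino acid synthesis and tRNA charging were not called, but in 2 of these lists more genes were lower than the share over all genes. Genes of Asp, Glu, Asn and Pro metabolism had 1 higher and 8 lower of 20 (5% and 40%, beside 12.2% and 12.5% of all genes). Their median was -0.26 after -0.93 under drug, and 5 had deepened and 0 moved back. GOT1, aspartate aminotransferase, changed by -0.82 (adjusted p 0.00059, SE 0.13). Cytosolic aminoacyl-tRNA synthetases, which charge tRNAs, had 1 higher and 5 lower of 20 (5% and 25%, median -0.18 after -1.09). EPRS1, which charges Glu and Pro, had 262, 247 and 229.6 CPM in TC and 190.3, 190.2 and 197 CPM in PC, without overlap, and changed by -0.35 (adjusted p 0.0093, SE 0.08). IARS1, which charges Ile, had 3.29, 9.41 and 5.24 CPM in TC and 0.916, 1 and 0.532 CPM in PC and changed by -2.87 (adjusted p 0.015, SE 0.74), but it was not called without TC replicate 2 (-2.39, adjusted p 0.056) or PC replicate 3 (-2.63, adjusted p 0.066). CTU2, an enzyme of tRNA wobble uridine modification, had overlapping groups and changed by 0.15 (adjusted p 0.36, SE 0.11). ATF4 targets, which serve amino acid synthesis under stress, had 2 higher and 4 lower of 26 (median 0.02 after -2.15, and from -0.03 without PC replicate 2 to 0.07 without TC replicate 1). ASNS, asparagine synthetase, was low in all 6 libraries, with 0.285, 0.383 and 0.243 CPM in TC and 0.0785, 0.0435 and 0.116 CPM in PC, and its change of -1.90 (adjusted p 0.033, SE 0.62) was lost without TC replicate 1 (-1.93, adjusted p 0.065), TC replicate 2 (-1.70, adjusted p 0.099), PC replicate 1 (-1.90, adjusted p 0.08) or PC replicate 2 (-1.60, adjusted p 0.12). Serine and one-carbon genes had 3 higher and 2 lower of 17 (median -0.05 after -1.81, and from -0.10 without TC replicate 3 to -0.01 without TC replicate 1).

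**Figure D4:**
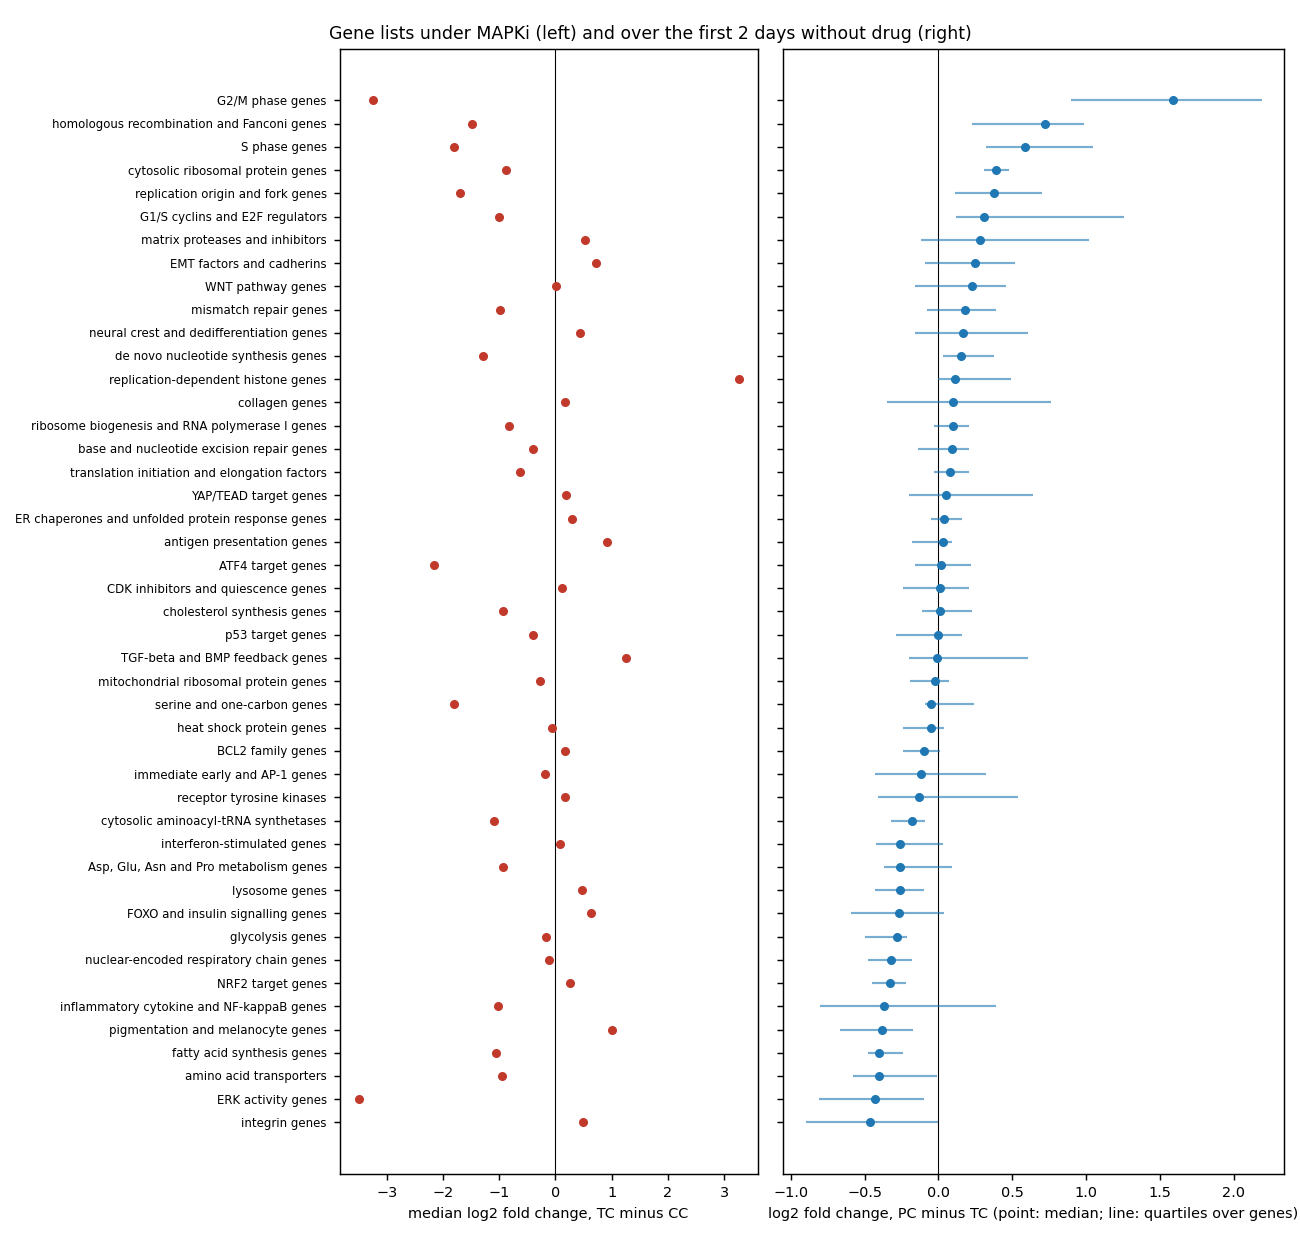
Median log2 fold change of each of 45 gene lists from CC to TC (left, x axis) and from TC to PC (right, x axis, with lines for the quartiles over genes), ordered by the right panel. G2/M phase genes have the highest median on the right, 1.59, and ERK activity genes, at -3.50 on the left, lie below 0 on the right as well; both panels use the TC libraries.

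ER chaperone, BCL2 family and histone genes had few calls. ER chaperones and unfolded protein response genes had 1 higher and 0 lower of 25. The higher one was CANX, with 1.23, 55.7 and 1.3 CPM in PC, and its change was -0.04 without PC replicate 2. HSPA5, the chaperone BiP, had 871, 981 and 1024 CPM in TC and 769.8, 892 and 909 CPM in PC and a change of -0.16 (adjusted p 0.2, SE 0.09). BCL2 family genes had 0 higher and 1 lower of 17, the lower one being BCL2, an inhibitor of cell death, with 13.4, 8.26 and 8.27 CPM in TC and 5.52, 4.33 and 3.05 CPM in PC and a change of -1.22 (adjusted p 0.0035, SE 0.24). Replication-dependent histone genes, which MAPKi had raised by a median of 3.26, had 1 higher and 0 lower of 32, and 19 of them were undecided.

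Stress and growth arrest lists are set against the 12.2% higher and 12.5% lower of all genes. Targets of p53 had 2 higher and 5 lower of 22 (9.09% and 22.7%). CDKN1A, the CDK inhibitor p21, had 85, 90.7 and 90.6 CPM in TC and 85.4, 89.9 and 87.9 CPM in PC, overlapping groups and a change of -0.02 (adjusted p 0.89, SE 0.07). CDK inhibitors and quiescence genes had 4 higher and 2 lower of 17 (23.5% and 11.8%). Among them CDKN2C, the inhibitor p18, rose by 1.28 (adjusted p 0.00033, SE 0.18). Heat shock protein genes had 2 higher and 5 lower of 19 (10.5% and 26.3%). Among the lower ones BAG3 changed by -0.64 (adjusted p 0.00032, SE 0.09), while CRYAB, a small heat shock protein, was higher, at 1.44 (adjusted p 0.00011, SE 0.17).

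The genes with the largest single changes were named by a rule of size. ABCB1 (chromosome 7, 87503017 to 87713323, minus strand), the drug efflux pump P-glycoprotein, had the largest fall among them, with 44.4, 43 and 46 CPM in TC and 4.48, 4.43 and 4.88 CPM in PC. The groups were far apart, the log2 fold change was -3.27 (adjusted p 8.2e-10, SE 0.08), and TC was 9.67-fold higher than PC. MAPKi had moved it from 71.9, 63.2 and 62.6 CPM in CC to those TC levels, and RC had 27, 28.3 and 29.3 CPM, so PC was the group with the lowest level of the 4. DHRS3, a retinal reductase, had 338, 309 and 293 CPM in TC and 48.8, 43.8 and 40.8 CPM in PC, without overlap, and changed by -2.82 (adjusted p 4.7e-07, SE 0.15). SERPINA3, a secreted protease inhibitor, changed by -2.59 (adjusted p 2.6e-05, SE 0.24), VGF, a neurosecretory protein, by -2.40 (adjusted p 9.5e-07, SE 0.14), and GDF15, a stress cytokine, by -2.20 (adjusted p 0.00039, SE 0.31). From CC to TC these 3 genes had changed by -4.29, -5.71 and -5.79. SPP1, which codes for osteopontin, changed by -2.08 (adjusted p 0.00029, SE 0.28) and TF, transferrin, by -2.04 (adjusted p 2.1e-06, SE 0.14). SLC2A12, a glucose transporter, had 3.24, 6.95 and 12 CPM in TC and 1.44, 1.24 and 1.78 CPM in PC, and TINAGL1, a matrix protein, had 7.47, 5.78 and 7.37 CPM in TC and 1.73, 1.57 and 1.85 CPM in PC, in both cases without overlap. FBLIM1, a linker of filamin at adhesion sites, had 8.76, 7.13 and 6.18 CPM in TC and 2.85, 1.59 and 1.09 CPM in PC and changed by -2.0 (adjusted p 0.00085, SE 0.32). GZMB, a granzyme known from killer lymphocytes, had 6.43, 7.93 and 8.92 CPM in TC and 2.09, 2.17 and 1.39 CPM in PC and changed by -2.04 (adjusted p 0.00049, SE 0.29).

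Of the 12 largest rises, TROAP, PIMREG, BIRC5, GTSE1 and ASPM are genes of mitosis that MAPKi had lowered. ASPM, a spindle pole protein, had 5.63, 6.01 and 4.39 CPM in TC and 28.7, 31.6 and 36.5 CPM in PC and changed by 2.60 (adjusted p 1.4e-07, SE 0.12). Others deepened a rise under drug. HS6ST3, a heparan sulfate sulfotransferase, had 1.48, 1.23 and 2.11 CPM in TC and 11, 11.6 and 14.1 CPM in PC and changed by 2.92 (adjusted p 1.2e-05, SE 0.25), and RC was back at 0.837, 0.748 and 0.53 CPM. ADAMTS16, a secreted metalloprotease, changed by 2.69 (adjusted p 0.0002, SE 0.34) and MATN4, a matrilin, by 2.73 (adjusted p 2.4e-05, SE 0.25). LINC00639, a long non-coding RNA with no count in any CC or RC library, had 0.285, 0.256 and 0.523 CPM in TC and 4.66, 4.83 and 5.65 CPM in PC and changed by 3.80 (adjusted p 0.00012, SE 0.31). MYO3B-AS1, listed as antisense to MYO3B, changed by 3.76 (adjusted p 0.00031, SE 0.37). The strand setting of the counting was not stated, so its reads cannot be told apart from those of its partner gene.

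The 9-day libraries show where these levels lay later, and they are set beside the 2-day values with no test of likeness, since the comparisons share libraries. Against CC, the median of the G2/M phase genes was -3.24 in TC, -1.49 in PC and 0.71 in RC. For the ERK activity genes it was -3.50, -3.68 and -0.22, with the lowest of these medians in PC. For the cytosolic ribosomal protein genes it was -0.87, -0.45 and -0.26. For the neural crest and dedifferentiation genes it was 0.44, 0.51 and -0.01. AXL had 17.5, 16.6 and 12.7 CPM and FZD1 had 58, 47.8 and 47.2 CPM in RC, in both cases below every PC library. NGFR had 21.9, 18.9 and 15.3 CPM in RC. SOX2 had 3.2, 3.56 and 3.31 CPM, PHLDA1 had 1137, 1151 and 1209 CPM and NES had 646, 636 and 532 CPM in RC, and the last 2 were above their PC levels in every library.

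A few named genes had values set by single libraries. PFDN5, a prefoldin subunit and nominally among the largest rises, had 0.778, 1.05 and 1.08 CPM in TC and 1.15, 6.3 and 27 CPM in PC, and its change of 3.56 was 1.94 (adjusted p 0.022) without PC replicate 3. EEF1B2, an elongation factor subunit, had 1.66, 1.87 and 1.74 CPM in TC and 2.25, 3.15 and 173 CPM in PC, so that PC replicate 3 stood apart, and its change of 5.08 was 0.62 (adjusted p 0.049) without that library. CANX, the chaperone calnexin, had 1.4, 1.02 and 1.46 CPM in TC and 1.23, 55.7 and 1.3 CPM in PC, and its change of 3.90 became -0.04 (adjusted p 0.96) without PC replicate 2. For EEF1B2 and CANX the call was also lost without TC replicate 1, 2 or 3. RPS2, a small subunit protein, had 1.48, 1.43 and 1.79 CPM in TC and 86.9, 16.2 and 2.17 CPM in PC and was at 118, 3.14 and 69.7 CPM in CC, so it varied within groups, and its call was lost without PC replicate 1 (2.54, adjusted p 0.21), PC replicate 2 (4.81, adjusted p 0.058) or any of TC replicates 1 (4.43, adjusted p 0.12), 2 (4.41, adjusted p 0.12) and 3 (4.58, adjusted p 0.1). The treatment of reads that match more than 1 place was not stated, and its part in these values was not tested.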

How the data were processed

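RNA of A375 cells, called total RNA in the study's sequencing methods, was depleted of ribosomal RNA and sequenced. The authors trimmed reads with fastp 0.20.1, aligned them to GRCh38.p13 with HISAT2 2.2.1 and counted reads per gene over exons with htseq-count 0.13.5, and they deposited raw counts for 44659 genes in 12 libraries. How strand and reads that match several places were handled is not given in the sources used here.

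The counts were fitted with edgeR 4.0.16 (R 4.3.3, quasi-likelihood, TMM scaling), with all 12 libraries in 1 model so that the 4 groups of 3 shared the spread (8 residual degrees of freedom). The study's own test was DESeq2. A mean scaled count of at least 10 left 15916 genes. Genes were called where the p adjusted after Benjamini-Hochberg was under 0.05, and changes beyond 1.5-fold were tested with edgeR's glmTreat. CPM values are counts scaled to the TMM-adjusted library size.

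Named genes were the 12 largest rises and falls beyond 1.5-fold, and at most 3 called members per list. The rises and falls averaged at least 100 normalized counts over the TC and PC libraries together, without group overlap or a numbered-copy name. List members averaged at least 50 such counts, and a short set was named whatever their values. The comparison, the lists and this set were chosen with earlier results of these data known. On simulated counts with the same library sizes, edgeR called 78 of 100 genes changed 2-fold from TC to PC, 99 of 100 changed 4-fold and 6 of 15716 unchanged ones (15916 genes in the step). All genes were simulated with 1 common spread (biological coefficient of variation 0.182), and only genes above a minimum count were changed. These rates therefore do not carry over to genes with a larger spread or fewer counts. Alternatives were DESeq2 1.42.0, other scaling, another filter, the 6 libraries alone, a replicate block and leaving out each library.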

Additional observations from a re-analysis of the deposited data

How the results depend on the processing

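Leaving out 1 library gave 1378 to 1810 genes higher and 1266 to 1774 genes lower in PC than in TC, and 132 to 185 genes raised by drug that moved back (1944, 1992 and 227 with all libraries); fewer libraries enter those fits. DESeq2 called 2300 higher and 2128 lower genes, and the 6 libraries alone 2411 and 2518. Scaling by library totals moved the share of higher genes among those called from 49.4% to 54.4%, the farthest of the alternatives. Of 564 recomputed list medians, 508 moved by less than the spread between replicates, 51 moved by more and 5 changed sign from a median above that spread: collagen genes to -0.00 when a summed count of 2 was the filter, and antigen presentation genes (0.03) to -0.14 with that filter, -0.03 without TC replicate 1, -0.03 without TC replicate 3 and -0.01 without PC replicate 3 (its highest value without 1 library was 0.01). Medians within that spread of 0 could also change sign, as ATF4 target genes did (-0.03 to 0.07 without 1 library). With that filter the medians of matrix proteases and inhibitors, TGF-beta and BMP feedback genes, YAP/TEAD target genes and inflammatory genes were 0.62, 0.24, 0.25 and 0.00, since genes with few counts entered the lists. Of 1977 recomputed changes of named genes, 107 lost and 5 gained the threshold, and CANX turned to -0.04 without PC replicate 2 (up to 4.46 without another library). With 3 libraries a group and 1 common spread, 78 of 100 simulated 2-fold changes were called. Smaller changes, and those of genes with a larger spread, can thus be missed.

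Same-numbered TC and PC libraries deviated together with r of 0.202, 0.0641 and 0.181, so the numbers were not taken as pairs, although each library correlated best with its own number, a hint from the data and not the design. A fit with the replicate block called 1994 genes higher and 2044 lower, and 356 and 196 beyond 1.5-fold. With it the calls of NGFR (0.50, adjusted p 0.064), ASNS (-1.91, adjusted p 0.051), SOX10, CANX, EEF1B2, RPS2 and DKK1 were lost, and no other named gene lost its call.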

Other observations

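Integrin and interferon-stimulated genes were more often lower than higher in PC. Of 19 integrin genes, which anchor cells to the matrix, 2 were higher and 8 lower (median log2 fold change -0.46, and -0.16 without TC replicate 3). ITGAV, the alpha V chain, had 567, 699 and 818 CPM in TC and 292, 316 and 349 CPM in PC, without overlap, and fell by 1.12 (log2) (adjusted p 2.4e-05, SE 0.11). MAPKi had raised it from 345, 353 and 339.7 CPM, and the highest PC library lay in the CC range and the others below it. ITGAX, an alpha chain known from leukocytes, fell by 1.65 (adjusted p 0.00062, SE 0.25). Of 33 interferon-stimulated genes, 0 were higher and 8 lower (median -0.26), beside 12.2% and 12.5% of all genes tested. HERC6, an interferon-induced ligase, changed by -1.40 (adjusted p 0.00011, SE 0.17) and IFIH1, the RNA sensor MDA5, by -0.73 (adjusted p 0.003, SE 0.14). Antigen presentation genes had 0 higher and 1 lower of 10. Inflammatory cytokine and NF-kappaB genes had 4 higher and 3 lower of 16 (median -0.37, and -0.16 without TC replicate 3). CSF1, the growth factor of macrophages, had 37.4, 42.7 and 44.2 CPM in TC and 17.8, 18.6 and 18.1 CPM in PC and changed by -1.19 (adjusted p 6.6e-06, SE 0.10).

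FOXO and insulin signalling genes, many of which rise when growth signalling falls, had 2 higher and 8 lower of 18 (median -0.27 after 0.64 under drug). KLF2, a Kruppel-like transcription factor, had 23.9, 34.1 and 44.8 CPM in TC and 17.1, 17 and 17.2 CPM in PC, without overlap, and changed by -1.0 (adjusted p 0.0073, SE 0.23). KLF9, a related factor, had 837, 809.9 and 778 CPM in TC and 402, 411 and 421 CPM in PC and changed by -0.97 (adjusted p 6.8e-05, SE 0.11). Its PC libraries were within the CC range of 527, 528 and 373 CPM. TRIB2, a pseudokinase of the Tribbles family, changed by -0.95 (adjusted p 0.009, SE 0.22).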
